A study of Mus musculus with 25 samples.

Results

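The data are transcript profiles of epididymal white adipose tissue (eWAT), the visceral fat pad beside the epididymis, from high-fat diet (HFD)-fed mice with and without the *Acod1* gene. All libraries titled as HFD-fed eWAT were taken, 5 from *Acod1*-/- mice and 5 from wild type mice, which is 10 of the 25 RNA-seq libraries of the series. The genotype difference was fitted for each of the 14698 genes whose CPM (a gene's counts relative to the counted reads of its library) averaged 1 or more over these 10 libraries. Both groups were males labelled C57BL/6N (C57BL/6NJ in the protocol text) that started the HFD, with 60% of its calories from fat, at 5 weeks of age and ate it for 16 weeks. The *Acod1* allele is a germline deletion of a commercial line bred in house, so the gene was missing in every cell type, and the methods give wild type littermates as controls. In addition, 4 eWAT libraries of wild type males on normal chow (ND) for 16 weeks entered the same fit, for its estimate of spread, and give a level beside the genotype values. HFD-fed inguinal fat (iWAT) of 5 wild type and 3 *Acod1*-/- males served for the comparison of depots. Of these 3 *Acod1*-/- libraries, the labels give 16 weeks for the first, 17 for the second and 18 for the third. No ND-fed *Acod1*-/- library was analysed here, so the genotype difference holds for the HFD alone.

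*Acod1* (also called *Irg1*) encodes a mitochondrial enzyme that activated macrophages use to make itaconate from cis-aconitate, an intermediate of the TCA cycle. Itaconate inhibits succinate dehydrogenase and modifies cysteines of regulatory proteins. When fat pads expand under overnutrition, macrophages gather around dying adipocytes and take up their lipid, and this lipid-associated state is marked by *Trem2*, *Gpnmb* and *Spp1*. The adipocytes of expanded pads are known to lose insulin responsiveness, beta-adrenergic sensitivity and mitochondrial capacity. The comparison asks how the absence of *Acod1* changes the eWAT transcriptome under this diet.

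*Acod1* itself (ENSMUSG00000022126, GRCm38 chromosome 14, 103046977 to 103056573, plus strand) was close to undetected. Wild type HFD libraries 1 to 5 had 9, 0, 2, 3 and 0 counts on the gene, and *Acod1*-/- libraries 1 to 5 had 0, 2, 0, 2 and 0. These counts are too few to show a difference (exact permutation test on CPM, two-sided, p = 0.405, where 5 against 5 libraries allow no p under 0.00794), so these counts give no check of the genotype labels. Of the nearest protein-coding genes, 5 upstream and 5 downstream of *Acod1*, 8 passed the filter on low counts and 1 of them changed. That gene was *Kctd12*, at a mean of 165 CPM in wild type and 91.0 CPM in *Acod1*-/- libraries (log2 fold change -0.86, edgeR adjusted p = 0.0408).

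Between 31.41 and 51.66 M reads were counted on genes in the 10 libraries. Library numbers in the file headers fall into a lower and a higher series. Libraries 1 to 4 of each HFD-fed group belong to series 1, and library 5 of each belongs to series 2, together with all ND-fed libraries. Mitochondrially encoded genes took 7.685, 13.21, 7.12, 7.003 and 5.092% of the counts in *Acod1*-/- libraries 1 to 5 and 3.958, 3.999, 7.448, 5.779 and 7.21% in wild type libraries 1 to 5 (two-sided exact permutation test, p = 0.167). The groups overlapped, and *Acod1*-/- library 2 stood above the rest. The adipocyte list of 12 markers, among them *Adipoq*, *Plin1* and *Fabp4*, summed to between 21345 and 55958 CPM in every HFD-fed library, so the defining transcripts of the labelled tissue were present.

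Transcripts of the male reproductive tract were present as well, and their level varied widely between libraries. The epididymis list of 8 genes, which holds secreted proteins of the epididymal epithelium such as *Crisp1* and the lipocalins *Lcn8* and *Lcn9*, summed to 2.08, 0.124, 0.0452, 0.64 and 111 CPM in wild type HFD libraries 1 to 5. It summed to 336, 3.52, 20.5, 14.5 and 1044 CPM in *Acod1*-/- libraries 1 to 5, and reached 7746 CPM in ND-fed wild type library 2. Each genotype thus had libraries with these transcripts, at higher sums in most of the *Acod1*-/- libraries. A list of 12 spermatid genes, chosen after their values were seen, includes the protamines *Prm1* and *Prm2* and the transition proteins *Tnp1* and *Tnp2*, which pack DNA into the sperm head. It summed to 0.514, 0.289, 0, 1.02 and 15.8 CPM in wild type HFD libraries and to 0.396, 177, 0.65, 869.8 and 178 CPM in *Acod1*-/- libraries 1 to 5. *Acod1*-/- libraries 2, 4 and 5 stood far above the others, and ND-fed wild type library 2 was at 110.2 CPM.

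**Figure D1:**
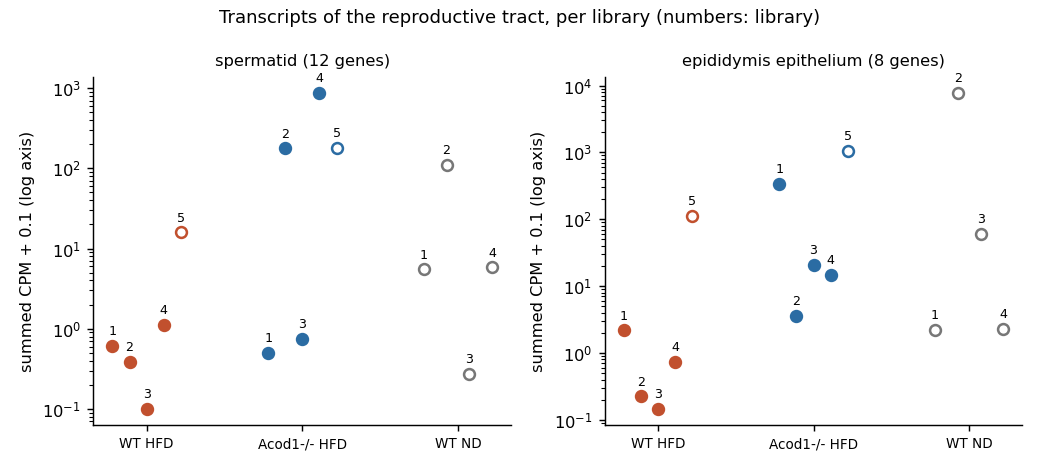
Summed CPM (plus 0.1, log axis) of the spermatid list (12 genes, left) and the epididymis list (8 genes, right) in each eWAT library, with library numbers beside the points (filled for series 1, open for series 2). Spermatid transcripts were highest in *Acod1*-/- library 4 at 869.8 CPM, and epididymis transcripts in ND-fed wild type library 2 at 7746 CPM.

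At an adjusted p under 0.1, 1473 genes (10% of those tested) were higher and 1654 (11.3%) were lower in *Acod1*-/- than in wild type eWAT, or 21.3% in either direction (edgeR quasi-likelihood test, Benjamini-Hochberg adjustment over 14698 genes). The median log2 fold change of the higher genes was 0.67 and that of the lower genes was -1.01, and 446 and 840 of them differed by more than 2-fold. Every *Acod1*-/- library lay above every wild type library in 423 genes (2.88%) and below in 644 (4.38%), of which 375 and 610 were also called. The counts depended on single libraries. Without wild type library 1 they were 788 higher and 1027 lower, and without *Acod1*-/- library 5 they were 2140 and 2265. The higher genes also numbered 854 without *Acod1*-/- library 3, 822 without *Acod1*-/- library 4 and 825 without wild type library 4, and 929 in a fit of the 10 HFD-fed libraries alone.

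*Acod1*-/- library 5 was the nearest of its group to the wild type libraries in 55.9% of the higher and 73.4% of the lower genes, and wild type library 5 was the nearest to the *Acod1*-/- libraries in 42.8% and 55.3%. Within series 1, 4 libraries of each genotype, the lower genes had a median log2 difference of -1.23. Between the single libraries of series 2 that median was -0.09, with 60% of the 1654 genes negative, and for the higher genes the values were 0.83 in series 1 and 0.15 in series 2. With 1 library of each genotype, series 2 gives values without a test, and animal and series cannot be told apart in it. Values within series 2 are therefore given beside the gene lists that hold most of the calls described below.

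Of the 198 genes more than 4-fold higher, 156 (78.8%) were under 1 CPM in every wild type HFD library, and 135 of these had their highest value in *Acod1*-/- library 4. Genes this low in wild type passed the filter only through the *Acod1*-/- libraries, so a large fold change is built into their selection. *Tnp2* stood at 0, 21.7, 0.0812, 124 and 10.8 CPM in *Acod1*-/- libraries 1 to 5 and at 0.518 CPM or less in the wild type HFD libraries. *Lcn8* stood at 76.4 CPM in *Acod1*-/- library 1 and at 0.259 CPM or less in every other HFD library. The 8 largest increases among genes averaging 5 CPM or more were *Lcn8*, *Lcn9*, *Tnp2*, *Tnp1*, *Ldhc*, *Prm1*, *Prm2* and *Oaz3*, which are genes of the epididymis or of spermatids. With *Acod1*-/- libraries 2, 4 and 5 left out, 871 of all 1473 higher genes were still called higher. Of the 198 genes more than 4-fold higher 43 were still called, and of the 156 under 1 CPM in wild type 17 were. Those libraries were left out for their spermatid transcripts, so the loss of calls among such genes was built in. Only *Acod1*-/- libraries 1 and 3 remained, and a call can also be lost through the smaller number of libraries. The part of reproductive tract tissue in any of these increases was not tested. Calls of *Prm1*, *Prm2* and *Oaz3* were lost without *Acod1*-/- library 4 (adjusted p = 0.151, 0.192 and 0.157) and also without wild type library 1 (0.11, 0.153 and 0.143), 2 (0.101, 0.14 and 0.123) or 4 (0.107, 0.151 and 0.139). Without wild type library 3 those of *Prm2* and *Oaz3* were lost (0.118 and 0.109), and that of *Lcn9* was lost without wild type library 1, 2 or 4 (0.117, 0.103 and 0.181).

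**Figure D2:**
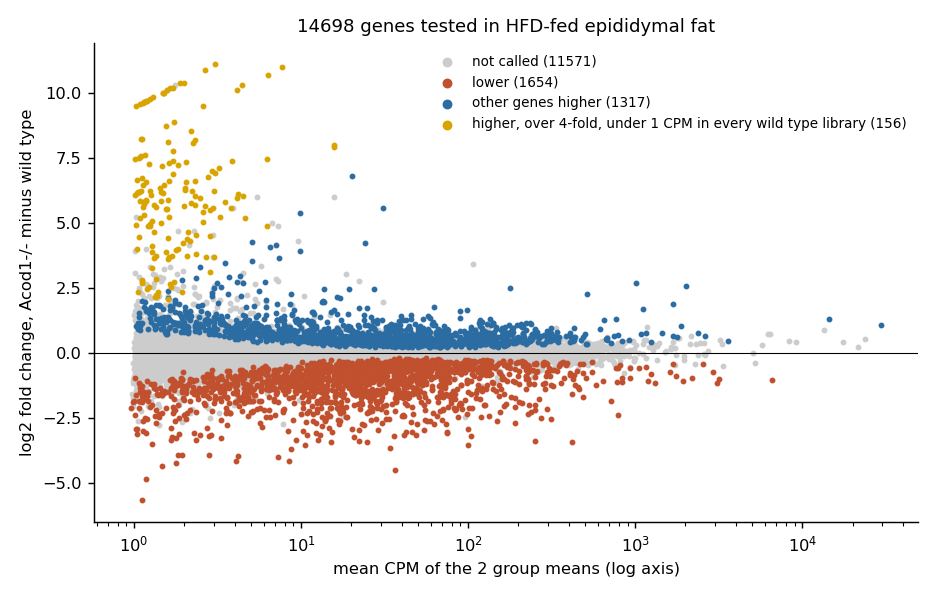
Log2 fold change (*Acod1*-/- minus wild type, HFD-fed eWAT) of the 14698 genes tested against the mean CPM of the group means (log axis), with the genes called at an adjusted p under 0.1 coloured. The 156 genes in yellow were called higher by more than 4-fold and stayed under 1 CPM in every wild type library, and they lie at the low end of expression.

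Macrophage transcripts were lower in *Acod1*-/- eWAT. Of 14 macrophage markers 13 fell and none rose (median log2 fold change -1.78, against 0.04 over all genes tested), and of 10 lipid-associated macrophage markers 9 fell (median -2.89). The summed macrophage markers were 4567, 3105, 1747, 3616 and 1392 CPM in wild type libraries 1 to 5 and 774, 448, 484, 701 and 1443 CPM in *Acod1*-/- libraries 1 to 5. The groups overlapped only through the pair of series 2, and ND-fed wild type libraries held 553 to 940.3 CPM. The summed lipid-associated markers did not overlap, at 2416 to 7563 CPM in wild type and 526 to 1840.3 CPM in *Acod1*-/- libraries. In whole tissue, fewer cells of a type and less RNA per cell cannot be told apart.

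*Trem2*, the lipid-sensing receptor of these macrophages, was at 380.3, 178, 96.7, 185 and 77.7 CPM in wild type libraries and at 10.7, 4.2, 5.68, 7.4 and 50.3 CPM in *Acod1*-/- libraries (log2 fold change -3.54, SE 0.74, adjusted p = 0.0131). The groups were apart, with *Acod1*-/- library 5 far above the other 4 of its group. *Spp1*, the secreted matrix protein osteopontin, showed the largest decrease among genes averaging 5 CPM or more, from 213, 54.4, 25.9, 42.2 and 15.5 CPM in wild type to 0.989, 0.416, 0.244, 1.8 and 11.6 CPM in *Acod1*-/- libraries (log2 fold change -4.52, SE 1.03, adjusted p = 0.016). The other genes among the 8 largest decreases included *Myh15* (-4.15), *Fat3* (-4.02), *Zranb3* (-3.66) and *Pcp4l1* (-3.53). Within series 2 the log2 differences of these 4 genes were 0.11, -0.24, 0.04 and -0.38. The call of *Myh15* was lost without wild type library 1 (adjusted p = 0.104). That of *Pcp4l1* was lost without *Acod1*-/- libraries 2, 4 and 5 (adjusted p = 0.101). *Cd68*, a lysosomal glycoprotein of macrophages, fell by 2.69 on the log2 scale (SE 0.53). The integrin *Itgax* (CD11c) fell by 2.57 (SE 0.67), and *Ms4a7*, a membrane protein of macrophages, fell by 3.16 (SE 0.50). *Adgre1*, which encodes the F4/80 antigen, fell by 2.47 (SE 0.61), although *Acod1*-/- library 5, at 97.4 CPM, lay above wild type libraries 3 and 5, at 82.9 and 61.3 CPM. All 10 lipid-associated markers were lower in *Acod1*-/- than in wild type within series 2 as well, by a median of 0.36 on the log2 scale against 4.20 in series 1, and the 14 macrophage markers differed there by a median of -0.06 against -2.26. Leaving out single libraries gave 11 to 13 macrophage markers and 6 to 9 lipid-associated markers that fell, the 6 without wild type library 1.

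Markers of other immune cells differed in how far they followed. Of 8 markers of resident macrophages, *Folr2*, *Pf4* and *Gas6* fell, and *Lyve1*, *Timd4* and *Cd163* had log2 fold changes of 0.03, 0.23 and 0.08 that did not pass the test. None of 4 monocyte markers passed, with *Ccr2* at -0.76 (adjusted p = 0.198). Of 6 mast cell markers 5 fell (median -3.10), among them the proteases *Mcpt4*, *Tpsb2* and *Cpa3*, but in series 2 the median was 1.3 and 5 of the 6 were higher in the *Acod1*-/- library. Mast cell transcripts were not uniform in wild type mice. *Cpa3*, a carboxypeptidase of mast cell granules, was at 32.9, 24.8, 1.9, 20.4 and 1.02 CPM in wild type and at 0.964, 0.189, 0.785, 0.634 and 3.67 CPM in *Acod1*-/- libraries. Wild type libraries 3 and 5 thus lay within the *Acod1*-/- range. Of 7 T cell markers tested 3 fell, of which *Trac*, the constant segment of the T cell receptor alpha chain, was apart (6.48 to 15 CPM against 1.08 to 3.2 CPM, log2 fold change -2.18, SE 0.33). The number of T cell markers that fell ran from 1 (without *Acod1*-/- library 1, 3 or 4 or wild type library 2 or 4) to 5 (without wild type library 3), and the call of *Cd8a* was lost in the fit of the 10 HFD-fed libraries alone (adjusted p = 0.119) and that of *Cd3g* without the filter on low counts or with single libraries left out. None of 5 B cell markers passed, and their sum reached 46.3 CPM in *Acod1*-/- library 4 against 11.9 CPM or less in every wild type library.

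**Figure D3:**
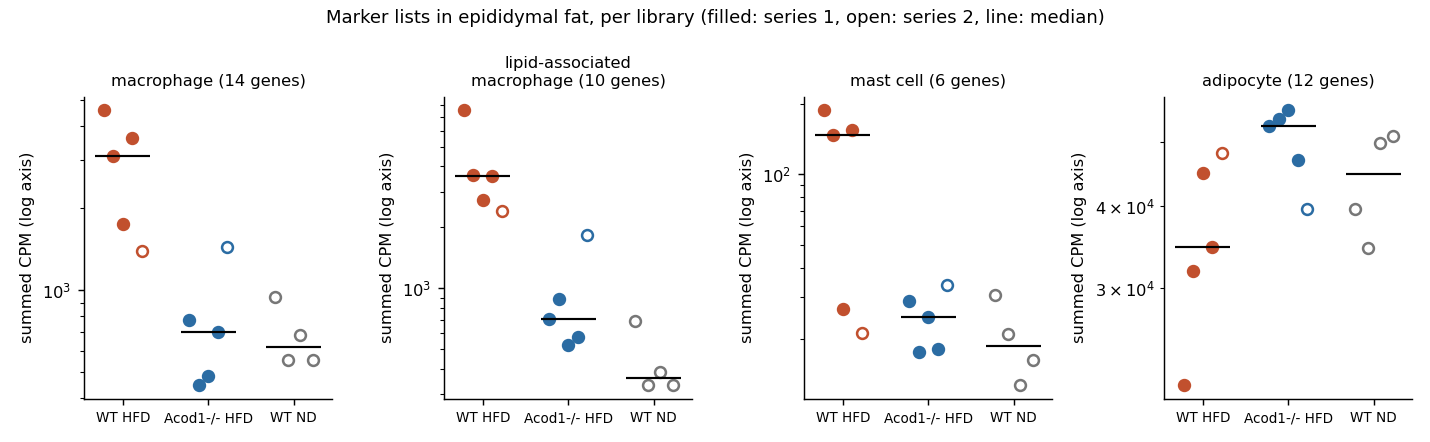
Summed CPM (log axes) of 4 marker lists in each eWAT library, with filled points for series 1, open points for series 2 and a line at the group median. Macrophage and lipid-associated macrophage sums lay lower in *Acod1*-/- mice, wild type libraries 3 and 5 lay at the *Acod1*-/- level for mast cell markers, and adipocyte sums ran from 39577 to 55958 CPM in *Acod1*-/- libraries.

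Signal receptors and effectors of myeloid cells fell with these markers. Of 13 Toll-like receptors and adaptors tested 8 fell, including the lipopeptide receptors *Tlr1* (log2 fold change -2.45) and *Tlr2* (-1.48), the nucleic acid receptors *Tlr7* (-2.20) and *Tlr13* (-2.97), and the adaptor *Myd88* (-0.43). *Tlr4*, the receptor of lipopolysaccharide, did not pass (log2 fold change -0.51, adjusted p = 0.12). In series 2 this list ran the other way, with a median of 0.38 and 9 of 13 genes higher in the *Acod1*-/- library, among them *Tlr2* (0.66), *Tlr7* (0.45) and *Tlr13* (0.51). Of 8 inflammasome genes 7 fell, with *Pycard*, which encodes the adaptor ASC, at 40.8, 20.4, 18, 32.3 and 16.2 CPM in wild type and 5.79, 7, 4.9, 4.44 and 11.6 CPM in *Acod1*-/- libraries (log2 fold change -1.92, SE 0.38, adjusted p = 0.0113). *Il1b* and *Nlrp3* were under the filter, and in series 2 the list median was -0.16 with 4 of 8 genes lower. All 6 subunits of the phagocyte NADPH oxidase fell, by 1.38 for *Ncf1* to 2.01 for *Cyba* on the log2 scale, and in series 2 the median was -0.24 with 4 of 6 lower. All 7 genes of MHC class II presentation fell, with *H2-Aa* at 507 to 897 CPM in wild type and 177 to 413 CPM in *Acod1*-/- libraries, and their median difference was -1.63 in series 1 and -0.17 in series 2. Of 15 interferon-stimulated genes tested, *Oas1a* and *Oasl2* fell, a share of 13.3% that is near the 11.3% of all genes called lower. The call of *Oasl2* was lost without wild type library 1 (adjusted p = 0.141). *Isg15* and *Irf7* had log2 fold changes of -0.05 and -0.00285 that did not pass.

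Secreted signals were lower as well. Of 21 chemokine ligands tested 12 fell and none rose (median -1.13), and leaving out single libraries gave 6 (without wild type library 4) to 15. In series 2 the median was -0.18 and 15 of 21 were lower. *Ccl4*, a chemokine of macrophages, was at 8.85, 3.3, 0.79, 3.25 and 1.06 CPM in wild type and at 0.0989, 0.189, 0, 0.608 and 0.216 CPM in *Acod1*-/- libraries, which were apart (log2 fold change -3.93, SE 0.87, adjusted p = 0.0146). *Ccl9* and *Cxcl16* fell by 1.99 and 1.46 on the log2 scale. *Ccl2*, the main attractant of monocytes, was 21.1 to 55.1 CPM in wild type and 3.25 to 19.6 CPM in *Acod1*-/- libraries (log2 fold change -1.58, SE 0.51, adjusted p = 0.0555). Its call was lost without *Acod1*-/- library 1, 2 or 3 or wild type library 4 (adjusted p = 0.117, 0.103, 0.109 and 0.144). Among cytokines, *Tgfb1* fell by 1.11 (SE 0.24) and *Tnf*, at 3.01 CPM or less in every library, fell by 1.62 (adjusted p = 0.0941), a call lost in the fit of the 10 HFD-fed libraries alone (adjusted p = 0.113). *Il6*, *Il10*, *Ifng* and *Osm* were under the filter. Complement followed the same direction for 7 of 10 genes. *C1qb*, a subunit of the C1q molecule that macrophages secrete, was at 208 to 723 CPM in wild type and 57.5 to 196 CPM in *Acod1*-/- libraries. *C3* fell by 1.10, although *Acod1*-/- library 5, at 1063 CPM, lay above wild type libraries 1, 3 and 5, at 824, 868 and 889 CPM. *C2*, a protease of the classical pathway, rose by 0.89. In series 2 the complement median was -0.06, with 6 of 10 genes lower.

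Of 21 lysosomal genes 18 fell and none rose, with the cathepsins *Ctss* (log2 fold change -2.53), *Ctsd* (-1.09) and *Ctsb* (-1.01) and the lysosomal acid lipase *Lipa* (-1.90) among them. *Ctsb*, a cysteine protease, was at 5949, 4295, 3321, 4476 and 3225 CPM in wild type and 1995, 1930, 1799.7, 1862 and 2971 CPM in *Acod1*-/- libraries. Many of these genes are expressed by adipocytes too, and they fell together with the macrophage sums. The part of macrophage number in this was not tested. In series 2 the lysosomal median was -0.02, with 11 of 21 genes lower. For *Lipa*, *Acod1*-/- library 5, at 204 CPM, lay above wild type libraries 3 and 5, at 183 and 165 CPM. *Plin2*, the perilipin of small lipid droplets and of lipid-laden macrophages, fell by 0.96 (SE 0.24, adjusted p = 0.0216), while *Plin1*, the perilipin of the adipocyte droplet, rose by 0.67 (SE 0.20, adjusted p = 0.0436). In series 2 both ran the other way, with *Plin2* at 862 CPM in the *Acod1*-/- and 792 CPM in the wild type library. *Plin1* was at 1610.2 and 1757 CPM there. Without *Acod1*-/- library 3 the call of *Plin1* was lost (adjusted p = 0.104), as it was with all genes kept (adjusted p = 0.116).

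The genes with the smallest p among those lower in *Acod1*-/- mice were led by *Fcer1g*, the signalling chain shared by Fc receptors. It was at 238, 109, 91.7, 164 and 86.1 CPM in wild type and at 31, 22.7, 20.9, 31.5 and 47.4 CPM in *Acod1*-/- libraries, and the groups were apart (log2 fold change -2.17, SE 0.30, adjusted p = 0.0104). *Lmo2*, *Plekho1*, *Slamf9*, *Ptpn7* and *Aprt* fell by between 1.49 and 1.84 on the log2 scale with groups apart. *Ltbp2*, a matrix protein of the fibrillin family, differed by less but with little spread, at 31.3 to 38.5 CPM in wild type and 18.0 to 25.4 CPM in *Acod1*-/- libraries (log2 fold change -0.68, SE 0.11). Its difference was nearly as large within series 2 (-0.60) as within series 1 (-0.71). In ND-fed wild type eWAT the means of these genes lay between 3.13 CPM (*Ptpn7*) and 21 CPM (*Ltbp2*), below the HFD-fed wild type means of all 7.

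Matrix genes fell in part. Of 15 collagens 7 fell, among them the fibrillar collagens *Col1a1* (-1.38), *Col1a2* (-1.07) and *Col3a1* (-1.15), whereas the basement membrane collagens *Col4a1* (-0.18) and *Col4a2* (-0.08) did not pass. The count of collagens that fell ran from 5 (without *Acod1*-/- library 3 or 4 or wild type library 4) to 12 (without *Acod1*-/- library 5). In series 2 the direction was the opposite for 13 of the 15, with a median of 0.43 against -1.08 in series 1. Of 16 matrix crosslinking and protease genes 10 fell, from 5 (without wild type library 1) to 13 (without *Acod1*-/- library 5) when single libraries were left out, and in series 2 their median was -0.09. *Timp1*, an inhibitor of metalloproteinases that marks fibrotic fat, was at 45.6, 16, 16.9, 49.8 and 19.7 CPM in wild type and 4.7, 2.12, 0.893, 4.76 and 9.38 CPM in *Acod1*-/- libraries, which were apart (log2 fold change -2.75, SE 0.56, adjusted p = 0.0122). *Lum*, a small proteoglycan of fibroblasts, fell by 2.08, with *Acod1*-/- library 5 at 161 CPM above wild type library 5 at 130.3 CPM. *Pdgfra*, the receptor that marks adipose progenitors, fell by 0.93, and *Dpp4* and *Cd34* of the same list did not pass (log2 fold changes 0.02 and -0.35). Of 10 cell cycle genes 7 fell, from 1 (without *Acod1*-/- library 3 or 4 or wild type library 1) to 10 when single libraries were left out, and *Mki67* did not pass (-1.09, adjusted p = 0.105). In series 2, 9 of these 10 genes were higher in the *Acod1*-/- library.

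Adipocyte genes moved the other way. Of 12 adipocyte markers 8 rose and none fell (median 0.71), and leaving out single libraries gave 4 (without *Acod1*-/- library 3) or 5 (without wild type library 4) to 8. *Cfd*, the serine protease adipsin, was at 127, 263, 754, 468 and 1269 CPM in wild type and at 4229, 3078, 5961, 3250.1 and 677 CPM in *Acod1*-/- libraries (log2 fold change 2.58, SE 0.60, adjusted p = 0.0172). *Acod1*-/- libraries 1 to 4 were above every wild type library, and library 5 was below wild type libraries 3 and 5. *Pck1*, the enzyme that starts glycerol synthesis from pyruvate in fat, and *Retn*, which encodes resistin, rose by 1.69 and 1.89 on the log2 scale, and again library 5 was below its series 2 partner. *Fabp4*, the abundant fatty acid carrier of adipocytes, and *Lep*, leptin, did not pass (log2 fold changes 0.25 and -0.50). *Lep* was at 2404 to 4825 CPM in wild type and 1272 to 6707 CPM in *Acod1*-/- libraries, with the highest value in library 5. In series 2, 10 of the 12 markers were lower in the *Acod1*-/- library (median -0.27 against 1 in series 1).

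*Adrb3*, the beta-adrenergic receptor of adipocytes that starts lipolysis, was at 51.3, 140.1, 291, 148 and 264 CPM in wild type and at 945, 839, 1169.9, 1153 and 179.7 CPM in *Acod1*-/- libraries (log2 fold change 2.26, SE 0.48, adjusted p = 0.0137). Library 5 was again within the wild type range. Of 10 insulin action genes 7 rose and none fell (median 0.57), and 5 (without wild type library 1 or 4) to 8 rose when single libraries were left out. In series 2 the median was -0.08, with 6 of 10 lower in the *Acod1*-/- library. *Insr*, the insulin receptor, was at 70.2, 94.3, 102, 74.1 and 110.1 CPM in wild type and at 151, 141, 170, 148 and 115 CPM in *Acod1*-/- libraries, which were apart (log2 fold change 0.69, SE 0.14, adjusted p = 0.0127). *Pde3b*, the phosphodiesterase through which insulin restrains lipolysis, was apart as well (171 to 241 CPM against 308 to 504 CPM, log2 fold change 0.95, SE 0.17). *Irs1* and *Slc2a4*, the insulin-responsive glucose transporter GLUT4, rose by 0.96 and 1.16, with library 5 of *Acod1*-/- within the wild type range in both. *Slc2a3*, a high-affinity glucose transporter, rose by 1.97 (SE 0.34) and was the only gene among the 10 higher genes with the smallest p whose series 2 difference exceeded 1 on the log2 scale (1.18).

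Among lipogenic genes 4 of 14 rose (28.6% beside the 10% of all genes), namely *Acaca*, *Scd1*, *Mlxipl* and *Thrsp*. The count was 2 without *Acod1*-/- library 2 or wild type library 1, and the series 2 median was 0.22. *Scd1*, the desaturase that makes oleate and palmitoleate, was at 8406 to 26261 CPM in wild type and 30684 to 51339.7 CPM in *Acod1*-/- libraries (log2 fold change 1.07, SE 0.28, adjusted p = 0.0266), and *Fasn* did not pass (0.57, adjusted p = 0.394). The call of *Scd1* was lost with all genes kept (adjusted p = 0.113), and those of *Acaca* and *Mlxipl* without *Acod1*-/- library 2 (adjusted p = 0.137 and 0.104). *Mogat1*, an acyltransferase of triglyceride synthesis, rose by 1.74. *Klf15*, a transcription factor of amino acid and lipid metabolism, rose by 1.25 with groups apart (16.5 to 29.1 CPM against 40.9 to 84.7 CPM), while *Pparg* and *Cebpa* did not pass (0.41 and 0.33).

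Catabolism of branched-chain amino acids was the metabolic list with the largest share of increases, 15 of 18 genes (median 0.72), and 12 to 16 when single libraries were left out. It covers the whole route from the transaminase *Bcat2* through the dehydrogenase complex (*Bckdha*, *Bckdhb* and *Dbt*) to propionyl-CoA carboxylase (*Pcca* and *Pccb*) and methylmalonyl-CoA mutase (*Mut*). *Acadsb*, which oxidizes the acyl-CoA made from isoleucine, was at 96.4, 153, 146, 131 and 151 CPM in wild type and at 244, 242, 269.8, 232 and 203 CPM in *Acod1*-/- libraries (log2 fold change 0.82, SE 0.14, adjusted p = 0.0104). The groups were apart, and the difference held the same sign within series 2 (0.43 against 0.93 in series 1). *Aldh6a1*, the dehydrogenase of the valine route, was apart too, at 200.5 to 361 CPM against 421 to 726 CPM (log2 fold change 0.96, SE 0.18). *Ppm1k*, the phosphatase that activates the dehydrogenase complex, and *Auh* did not pass. The calls of *Bcat2* and *Bckdhb* were lost without *Acod1*-/- library 3 (adjusted p = 0.134 and 0.133). For the list as a whole, the series 2 median was -0.03 against 0.86 in series 1, and 8 of 18 genes were higher in the *Acod1*-/- library.

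Of 24 TCA cycle and pyruvate entry genes 13 rose and none fell, by small amounts (median 0.43). *Dlst*, of the oxoglutarate dehydrogenase complex, rose by 0.51 with groups apart (SE 0.13, adjusted p = 0.0228), and 16 of the 24 genes were higher in the *Acod1*-/- library of series 2 (median 0.13 against 0.52 in series 1). This count was sensitive to the setting, at 5 without wild type library 1, 5 without the filter on low counts and 5 without *Acod1*-/- libraries 2, 4 and 5. Nuclear-encoded respiratory chain subunits rose in 8 of 50 genes, a share of 16% beside the 10% of all genes, and in 1 of 50 without wild type library 1 and 20 of 50 without *Acod1*-/- library 5. In series 2 their median was -0.31 against 0.44 in series 1, with 40 of the 50 genes lower in the *Acod1*-/- library. None of the 13 mitochondrially encoded subunits passed (median 0.73), although 9 did without *Acod1*-/- library 5, and all 13 were lower in the *Acod1*-/- library of series 2. Fatty acid oxidation rose in 4 of 20 genes, *Echs1*, *Eci1*, *Eci2* and *Hadh* (20% beside the 10% of all genes), and in 7 without *Acod1*-/- library 5. The long-chain enzymes *Cpt2*, *Acadvl* and *Hadha* had log2 fold changes of 0.26, 0.35 and -0.10 that did not pass.

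Genes with the smallest p among those higher were led by *Acsm3*, a medium-chain acyl-CoA synthetase of mitochondria. It was at 0.21, 1.16, 1.76, 0.691 and 1.63 CPM in wild type and at 19.2, 10.1, 20.5, 16.2 and 2.14 CPM in *Acod1*-/- libraries (log2 fold change 3.64, SE 0.58, adjusted p = 0.0104). The groups were apart, but only just in series 2, where the log2 difference was 0.38 against 4.32 in series 1. *Sox6*, a transcription factor, and *Thbd*, the anticoagulant receptor thrombomodulin, rose by 0.99 and 1.36 with groups apart. *Klhl7*, *Bpnt1* and *Snx25* rose by 0.47 to 0.67 with standard errors of 0.08 to 0.11, and every library of each was apart from the other group. In ND-fed wild type eWAT the mean of *Acsm3* was 26.1 CPM and that of *Thbd* 201 CPM, above both HFD-fed groups.

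**Figure D4:**
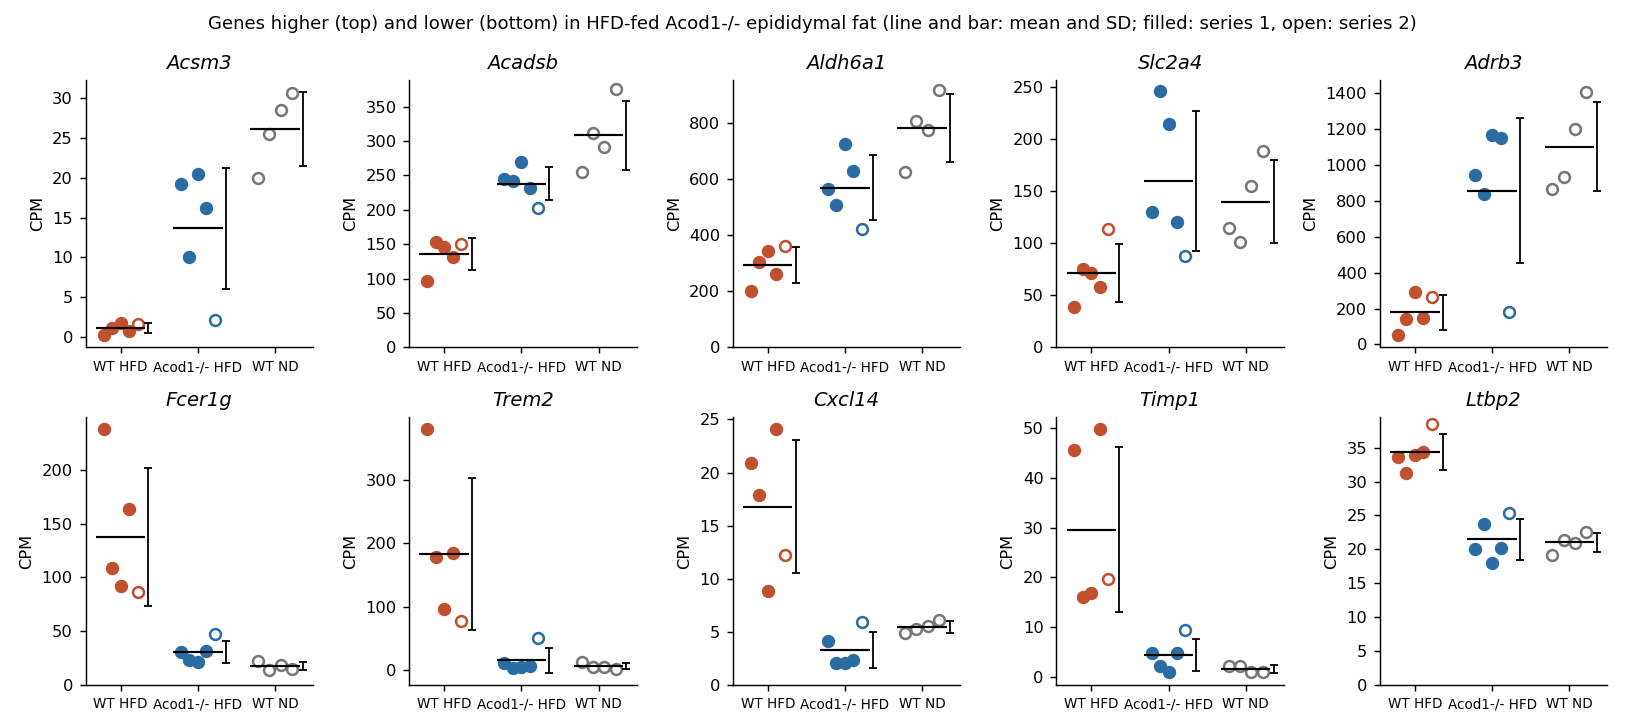
CPM of 5 genes higher (top) and 5 genes lower (bottom) in HFD-fed *Acod1*-/- eWAT, each point a library (filled for series 1, open for series 2), with the group mean as a line and the SD as a bar. For *Adrb3* and *Slc2a4* the open *Acod1*-/- point lies within the wild type range, and for *Trem2* it lies at 50.3 CPM between the other *Acod1*-/- libraries and the wild type libraries.

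**Figure D5:**
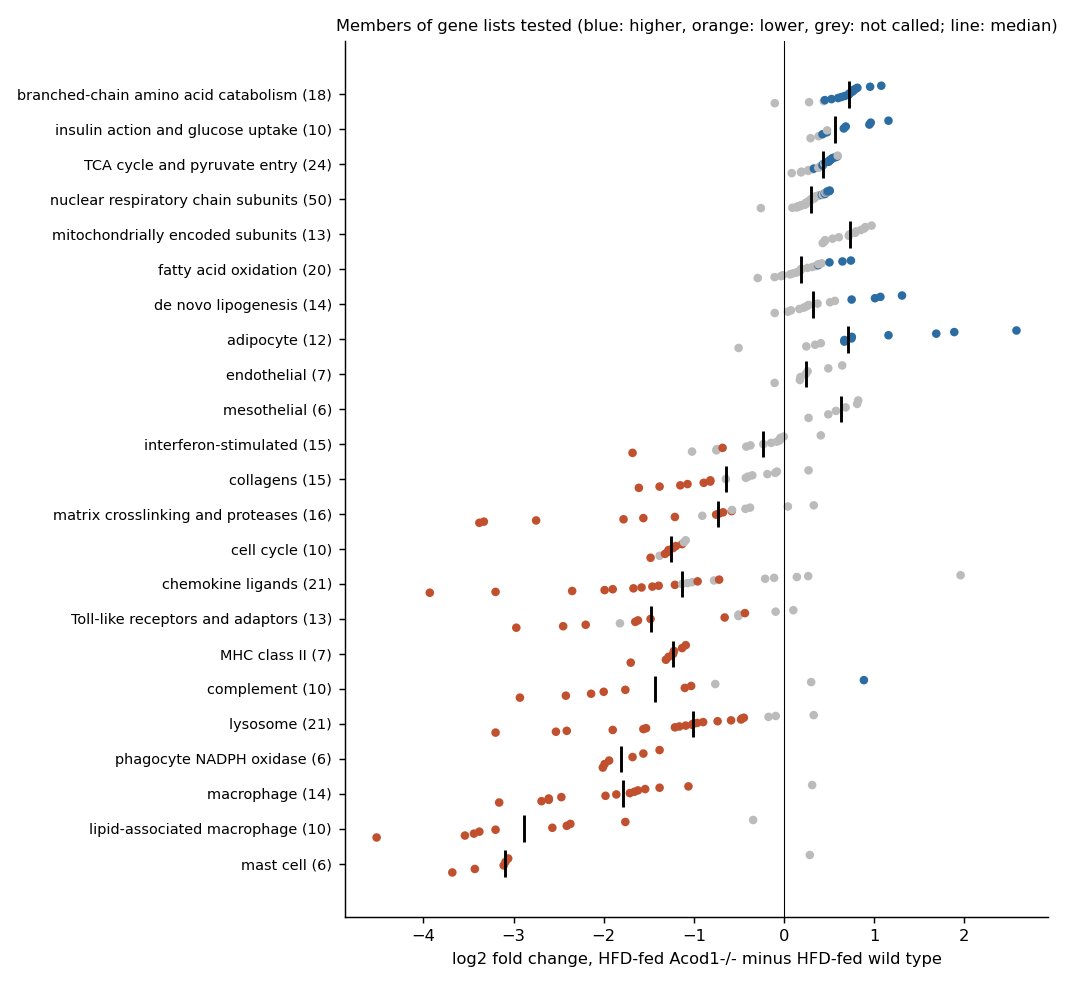
Log2 fold change (*Acod1*-/- minus wild type) of each tested member of 23 gene lists, with the number tested in parentheses, called members in blue (higher) or orange (lower) and the list median as a black line. All 7 MHC class II genes and all 6 phagocyte oxidase subunits lie in orange, and 15 of 18 branched-chain amino acid genes in blue.

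Other lists showed few calls. Neither the 7 endothelial nor the 6 mesothelial markers held a call. Of 5 genes handling itaconate or its relatives, *Clybl*, which clears the itaconate-derived citramalyl-CoA, rose by 0.52 (adjusted p = 0.086, and 0.139 in the fit of the 10 HFD-fed libraries alone) and *Sugct*, *Auh* and *Rab32* did not pass. Of 11 NRF2 targets 1 rose and 1 fell, shares of 9.09% each that are near the 10% higher and 11.3% lower of all genes. *Hmox1*, the heme oxygenase that macrophages express strongly, fell by 1.48 (SE 0.30, adjusted p = 0.0125). *Gclc* rose by 0.42 (adjusted p = 0.0848, and 0.188 with all genes kept), and *Nqo1* and *Txnrd1* did not pass (0.28 and -0.35). Of 6 thermogenic genes tested 1 rose and 1 fell (16.7% each, beside 10% higher and 11.3% lower of all genes). Their log2 fold changes ran from -1.55 to 0.64, and *Cidea* and *Cox8b* did not pass (-0.28 and 0.33). Of the 16 circadian clock genes 1 fell, *Npas2*, a share of 6.25% that is below the 11.3% of all genes called lower. The immediate early genes *Fos*, *Egr1* and *Junb* fell by 2.05, 0.89 and 1.17, as did *Atf3* by 2.98, while *Asns*, asparagine synthetase, rose by 0.97 with groups apart.

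The genotype difference was set against that of iWAT in a joint model of the 25 libraries, which tested 14651 genes. For 1 gene (0.00683%) the difference between depots passed, *Cxcl14*, a chemokine made by fibroblasts and adipocytes. In eWAT it was at 20.9, 17.9, 8.83, 24.1 and 12.2 CPM in wild type and at 4.15, 2.01, 2.03, 2.3 and 5.9 CPM in *Acod1*-/- libraries (log2 fold change -2.35). In iWAT the means were 43.5 ± 9.58 CPM (SD, n = 5) in wild type and 60.1 ± 11.3 CPM (n = 3) in *Acod1*-/- libraries (0.47), which gave a difference between depots of -2.81 (SE 0.44, edgeR adjusted p = 0.0276). The number of genes called was 0 without eWAT *Acod1*-/- library 4 and 2 without eWAT *Acod1*-/- library 3. It rose to 194 without eWAT *Acod1*-/- library 5, 49 without iWAT *Acod1*-/- library 1 and 409 without iWAT *Acod1*-/- library 3. In the same fit 148 genes were higher and 43 lower in *Acod1*-/- iWAT. The genes called higher in eWAT had a median log2 fold change of 0.23 in iWAT, and those called lower had -0.39, against 0.64 and -1 in eWAT. These genes were chosen by their eWAT values, which by itself makes the eWAT medians larger. The medians therefore cannot say in which depot the difference is greater. At an unadjusted p under 0.05 the difference between depots held for 1496 genes (10.21%). In simulated counts the joint fit called 24% of the genes given a log2 difference between depots of 1, and 74% of those given 2. The simulation gave a gene the same mean share of counts in all 25 libraries, apart from the change added. It held no other depot, diet or series difference, so these shares may not hold for the real libraries. A single call does not show that the depots changed alike.

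Sequence upstream of some of these genes is printed here because PU.1, the factor that directs macrophage gene expression, is known to bind purine-rich sites near start sites. The letters GAGGAAGT were searched on both strands from 250 bases before to 50 after each start in the RefSeq table of mouse promoters (GRCm38.p6). For the named genes, only the first match on each strand of a promoter was taken, and only where its 30-base stretch lay before the start. Such matches were found for *Spp1*, *Tlr1*, *Pycard*, *Aim2*, *C1qc* and *Mmp12*, which were lower in *Acod1*-/- eWAT. Matches were also found for *Tnp1* and *Ldhc*, which were higher. The call of *Aim2* was lost without *Acod1*-/- libraries 2, 4 and 5 (adjusted p = 0.107). A stretch from 4 of the lower genes and 1 of the higher genes is shown. Each 30-base stretch is written 5′ to 3′ on the strand of the gene, with the match, or its reverse complement, in capitals.
*Spp1* chr5:104434987-104435016, plus strand: caaaaccagagGAGGAAGTgtaggagcagg
*Tlr1* chr5:64933563-64933592, minus strand: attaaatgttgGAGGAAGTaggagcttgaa
*Aim2* chr1:173420480-173420509, plus strand: aaaccttattgGAGGAAGTgggtcactgag
*C1qc* chr4:136893091-136893120, minus strand: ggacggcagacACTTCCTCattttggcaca
*Tnp1* chr1:73016098-73016127, minus strand: ccacaggagtgGAGGAAGTtagatgtttag
A promoter was given for 10861 of the 14698 genes tested, and 411 of these (3.78%) held the letters. Of the 1654 lower genes 1273 had a promoter in the table and 89 of them (6.99%) held the letters, and of the 1473 higher genes 1096 and 30 (2.74%). An ERR element and an NRF1 core were searched in the same promoters, and their stretches are not printed. The ERR element was held by 0.359% of all genes with a promoter, 0.628% of the lower and 0.456% of the higher genes. For the NRF1 core these shares were 5.61, 4.24 and 6.2%. Fewer than 80% of each set had a promoter, so a comparison of these shares is void. A match is a description of the letters and not of binding.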

How the data were processed

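RNA was taken from snap-frozen fat pads and sequenced as directional mRNA libraries. The authors trimmed reads with cutadapt and aligned them with STAR to mm10 (GRCm38), with bedtools also named in the submitters' processing notes. The program and the strand setting that made the gene counts are not given in the sources used here, so overlapping and antisense genes are uncertain. The deposited tables hold raw counts for 54752 gene rows, and the authors' FPKM values beside them follow from those counts and were not tested. The 5 rows that name no gene were dropped. They included reads on no feature, equal to 6.413 to 9.971% in the 10 libraries. The depth of 31.41 to 51.66 M counted reads limits precision for genes near the filter, and a count of 0 allows up to 3 counts per library.

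Genes averaging 1 CPM or more over the 10 HFD-fed eWAT libraries were fitted in edgeR 4.0.16 (R 4.3.3) with TMM scaling and the quasi-likelihood test, with the 14 eWAT libraries in 3 groups. A gene was called at a Benjamini-Hochberg adjusted p under 0.1, and p-values measure the spread between these libraries, which the labels do not tie to numbered animals. CPM are after TMM scaling. The depot difference was fitted over 25 libraries. Single values were compared by exact permutation tests. Alternatives used DESeq2 1.42.0, other filters, a series term and libraries left out, and the fits were tested on simulated data. Symbols came from GENCODE vM21 for 54723 gene IDs.

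Named genes were, in each direction, the 10 called genes with the smallest p and the 8 with the largest fold change among those averaging 5 CPM or more. From each list the first 4 tested members and up to 3 other called members were also named. The genes, gene lists and rules were chosen with earlier results of these data known, and the spermatid list and the list members *C2*, *Col4a2*, *Eci2*, *Pcca*, *Pccb* and *Ppm1k*, which lie outside the rule, were chosen after their values were seen. Some genes are not reported here.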

Additional observations from a re-analysis of the deposited data

Results flagged for a closer look

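A library was singled out where its gap to the nearest other library, divided by the range of its group of 5, passed Dixon's critical value of 0.71. Of 50 groups tested 15 passed. Chance flags about 1 group in 20 of independent values chosen without regard to them, which these are not, since the lists and genes were chosen with earlier results known, the spermatid list for its values, and many values come from the same libraries.

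*Acod1*-/- library 5 stood above the other 4 of its group for the summed lipid-associated macrophage markers (1840.3 CPM), *Spp1* (11.6 CPM), *Trem2* (50.3 CPM), *Adgre1* (97.4 CPM), *Lum* (161 CPM) and the macrophage elastase *Mmp12* (154 CPM). Wild type library 1 stood above its group for the lipid-associated sum (7563 CPM), *Spp1* (213 CPM) and *Mmp12* (1043 CPM). The T cell markers reached 37.3 CPM in wild type library 4 and the B cell markers 46.3 CPM in *Acod1*-/- library 4. Skeletal muscle markers reached 73.9 CPM in *Acod1*-/- library 2. Reproductive tract transcripts stood apart in wild type library 5, at 111 CPM for the epididymis list and 15.8 CPM for the spermatid list, and in *Acod1*-/- library 4, at 869.8 CPM for the spermatid list.

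The genotype difference of *Cxcl14* differed between eWAT and iWAT by -2.81 on the log2 scale (edgeR interaction term, adjusted p = 0.0276).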

How the results depend on the processing

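Of 215 called named genes none changed direction in the settings of the genotype fit that tested it (up to 24), 142 kept their call in all of these and 73 lost it in at least 1. These genes were chosen by their calls and the settings share most of their libraries, so a kept direction is largely built in. None of the settings held series 2 alone. Between its single libraries 34.1% of all genes called higher were negative, and 40% of those called lower were positive. Genes that were not called could take either sign, such as *Lyve1* (-0.48 to 0.36). In the fit of the 10 HFD-fed libraries alone 929 genes were higher, and at an adjusted p under 0.05 there were 741 higher and 1067 lower. Leaving out single libraries gave 788 to 2140 higher and 1027 to 2265 lower genes, and 0 to 409 genes for the difference between depots. The cause was not tested. Without the filter on low counts 1117 genes were higher, of which 671 were among the 1473. The labels give no meaning to the replicate numbers, and libraries were not treated as paired because the same-number correlation was -0.153 for number 2, though 0.116 to 0.266 for the others. With the replicate block 1015 genes were higher and 1494 lower, calls such as *Lcn8*, *Lcn9*, *Clybl* and *Tnf* were lost (adjusted p = 0.124, 0.125, 0.115 and 0.237), and every wild type library but number 2 correlated best with its own number. Leaving out *Acod1*-/- libraries 2, 4 and 5 (chosen after seeing the data) gave 1315 higher and 1656 lower genes. Leaving out *Acod1*-/- libraries 1 and 5 and wild type library 5, the HFD-fed libraries with most epididymis transcripts, gave 2017 and 2200. ND-fed library 2, with the highest sum of all (7746 CPM), stayed in that fit. That fit also lacked both HFD-fed eWAT libraries of series 2, and without *Acod1*-/- library 5 alone the counts were 2140 and 2265. The part of epididymis tissue in this rise was not tested. *Acod1*, at 9 counts or less, was limited by depth.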
